A study of Mus musculus with 15 samples.

Results

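Integrins are cell surface adhesion receptors built from an alpha and a beta subunit, and the pairing decides what a cell can hold on to. The 10 subunit genes described here were *Itgal*, *Itgam*, *Itgb2*, *Itga4*, *Itgb7*, *Itgb1*, *Itga6*, *Itga9*, *Itgav* and *Itgb5*, taken by gene name from a table of 38924 genes that holds 27 integrin subunit genes. Each name matched 1 row, and all 10 genes passed the filter on low counts. They were measured by RNA-seq in 15 libraries of CD11b+ cells sorted from the brains of wild-type male C57BL/6J mice aged 12 months. The groups were CD45hi cells (4 libraries) and CD45lo cells (4 libraries) of mice kept on the control chow diet (CD-fed), and CD45hi cells (3 libraries) and CD45lo cells (4 libraries) of mice given a western diet from 2 months of age (WD-fed). CD45hi and CD45lo cells were parted by the surface level of the leukocyte protein CD45, from brains without olfactory bulb and cerebellum, and the gate of the study took CD11b+ cells negative for CD3e, a surface protein of T cells. The study describes its deposited counts as those of single animals. The labels name no mouse for a library. Replicate numbers and the numbers of the deposited files pair the libraries alike in CD-fed mice and differently in WD-fed mice. Which CD45hi and CD45lo libraries shared a mouse is therefore not settled here.

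In leukocytes, the beta2 chain (*Itgb2*) pairs with CD11a (*Itgal*), CD11b (*Itgam*), CD11c (*Itgax*) or CD11d (*Itgad*), and the resulting receptors bind ICAM proteins or complement fragments. The alpha4 chain (*Itga4*) pairs with beta1 (*Itgb1*) or beta7 (*Itgb7*) and binds VCAM1, MAdCAM1 and fibronectin during the arrest of blood leukocytes on endothelium. The alphaV chain (*Itgav*) pairs with beta1, beta3, beta5 (*Itgb5*), beta6 or beta8 and binds matrix proteins that carry an RGD motif, or latent TGF-beta. The alpha6 (*Itga6*) and alpha9 (*Itga9*) chains pair mainly with beta1 and bind laminins and tenascin C or osteopontin, respectively. Microglia, the resident macrophages of the brain, are known for surface CD11b.

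Libraries held 11951412 to 17912272 expected counts in all. A value of 3 counts, the floor used here, corresponded to 0.156 to 0.282 cpm (counts scaled to library size by TMM normalization), and covers counting error only. A principal component analysis of all genes set replicate 4 of the CD45hi cells of CD-fed mice and replicate 1 of the CD45hi cells of WD-fed mice apart from the other CD45hi libraries. The summed cpm of 9 microglia markers was 6420 to 7783 and 7114 to 7645 in CD45hi cells of CD-fed and WD-fed mice, against 16440 to 17500 and 13590 to 16920 in CD45lo cells. Defining markers of microglia were thus present in both sorted populations. In bulk libraries, fewer cells of a type and less RNA per cell cannot be told apart.

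*Itgal* and *Itga4* were far higher in CD45hi cells on each diet. *Itgb7*, at low level, had a large log2 fold change with a wide error and libraries that overlapped in WD-fed mice, *Itgb2* had a smaller difference, and the remaining subunits were at similar or lower level in CD45hi cells (*Itgam*, *Itgb1*, *Itga6*, *Itga9*, *Itgav*, *Itgb5*). With edgeR's glmTreat, which asks whether a difference exceeds 1.5-fold, *Itgal* and *Itga4* were called at an FDR under 0.05 on each diet, 2 of 10 subunits. Of all 14967 genes tested, 3.98% were called in CD-fed and 5.18% in WD-fed mice. With glmQLFTest, which asks for any difference, 4 of 10 subunits were called on each diet, against 8.03% of all genes in CD-fed (5.95% higher, 2.08% lower) and 9.12% in WD-fed mice (6.22% higher, 2.90% lower). In CD-fed mice these were *Itgal*, *Itga4* and *Itgb7* (higher in CD45hi cells) and *Itgb5* (lower). In WD-fed mice they were *Itgal*, *Itga4* and *Itgb2* (higher) and *Itgb5* (lower). The median log2 fold change of the 10 subunits was -0.15 in CD-fed and 0.05 in WD-fed mice, where that of all genes was 0.0357 and 0.

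**Figure D1:**
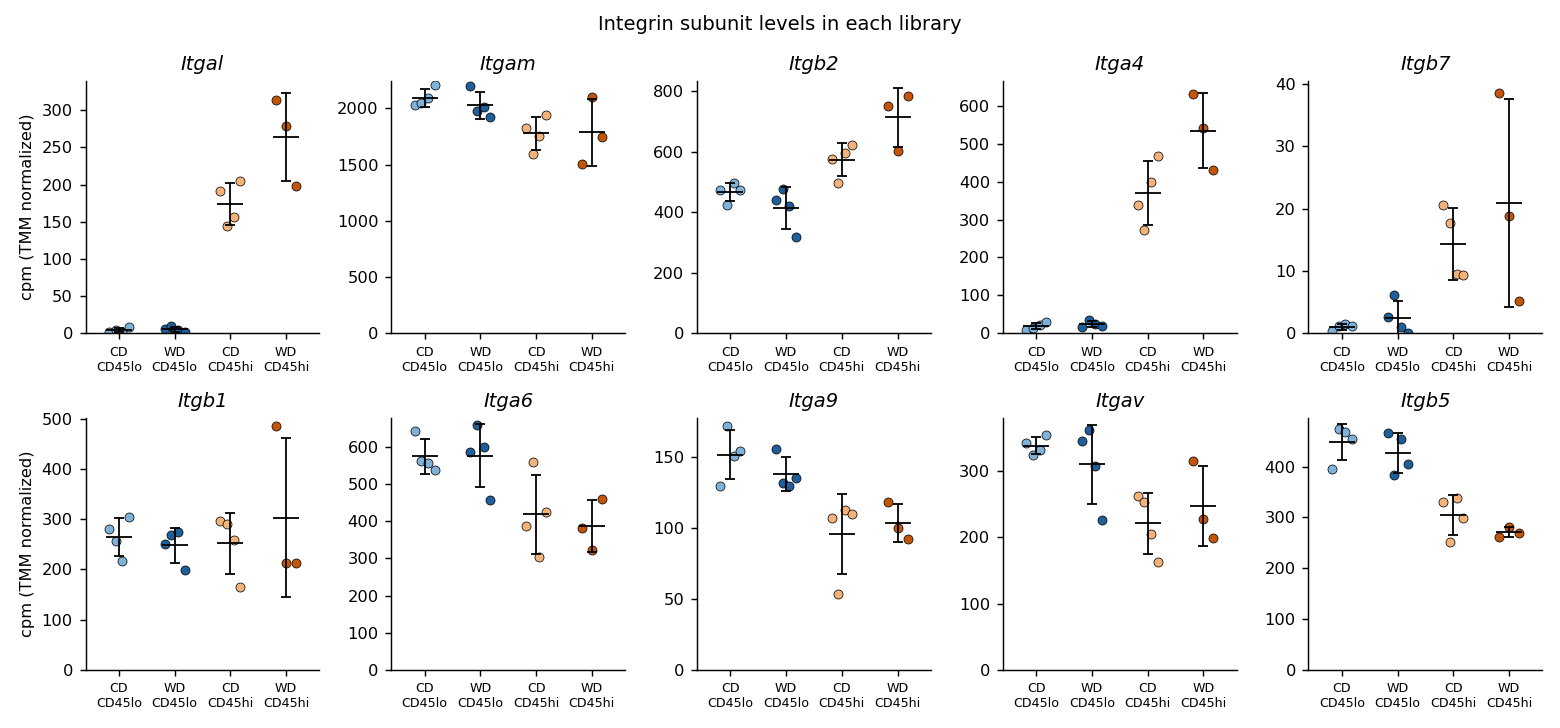
Level of each integrin subunit gene in cpm (TMM normalized, linear axis from 0) in the 15 libraries, 1 point per library, by diet and CD45 level. Horizontal bars with whiskers are the mean and SD, and *Itgal* and *Itga4* in CD45hi cells stand clear of the CD45lo cells, at 144.4 cpm or more against 9.50 cpm or less for *Itgal*.

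*Itgal* (ENSMUSG00000030830, chromosome 7 of mm10 from 127296260 to 127335138, plus strand) encodes CD11a, the alpha chain of the lymphocyte function-associated antigen that binds ICAM proteins. In CD-fed mice it was measured at 191.5, 144.4, 156.0 and 204.6 cpm in CD45hi cells and at 1.76, 4.62, 1.84 and 8.62 cpm in CD45lo cells. On the WD its level was 314.3, 279.2 and 198.4 cpm in CD45hi cells and at 5.31, 9.50, 4.28 and 1.36 cpm in CD45lo cells. Every CD45hi library lay above every CD45lo library on each diet. The difference was 41.2-fold on the CD (5.36 on the log2 scale, SE 0.559, edgeR glmTreat FDR = 1.57e-05) and 51.6-fold on the WD (5.69 on the log2 scale, SE 0.578, FDR = 1.13e-05). CD45lo libraries held 18 to 152 counts of *Itgal*, above the value of 3 counts in all 8.

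*Itga4* (ENSMUSG00000027009, chromosome 2 of mm10 from 79255426 to 79333123, plus strand) encodes CD49d. It was at 338.3, 271.7, 399.7 and 469.5 cpm in CD45hi cells and 9.24, 14.3, 20.5 and 29.6 cpm in CD45lo cells of CD-fed mice. Under the WD its level was 631.8, 542.6 and 432.1 cpm in CD45hi cells and 16.6, 34.6, 24.9 and 18.2 cpm in CD45lo cells. The groups did not overlap on either diet. The difference was 20.1-fold on the CD (4.33 on the log2 scale, SE 0.345, edgeR glmTreat FDR = 8.50e-07) and 22.7-fold on the WD (4.51 on the log2 scale, SE 0.356, FDR = 9.31e-07). Exons of *Itga4* share 1124 bases with *Cerkl* on the opposite strand, and its expected count was not whole in 15 of 15 libraries. Whether counting used the strand is not given in the sources used here, so part of this count could belong to *Cerkl*. Counts that were not whole also occurred for *Itga6*, in 14 of 15 libraries, with no exon overlap found.

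*Itgb7* (ENSMUSG00000001281, chromosome 15 of mm10 from 102215995 to 102231944, minus strand), the beta chain of the gut-homing integrin that binds MAdCAM1, was the subunit with the fewest reads. It was at 20.6, 17.7, 9.41 and 9.40 cpm in CD45hi cells and 0.353, 1.09, 1.48 and 1.13 cpm in CD45lo cells of CD-fed mice. With the WD the libraries were at 38.6, 18.8 and 5.21 cpm in CD45hi cells and 2.56, 6.16, 0.988 and 0 cpm in CD45lo cells, where 3 counts would have been 0.227 cpm in the library at 0. The groups did not overlap in CD-fed mice and overlapped in WD-fed mice. The log2 fold change was 3.81 in CD-fed mice (SE 1.03, edgeR glmQLFTest FDR = 0.0296, glmTreat FDR = 0.0555) and 3.10 in WD-fed mice (SE 1.03, glmQLFTest FDR = 0.0701, glmTreat FDR = 0.119). The glmQLFTest call in CD-fed mice was lost without replicate 1 of the CD45hi cells and without any 1 of the 4 CD45lo libraries (FDR 0.0555 to 0.0975).

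**Figure D2:**
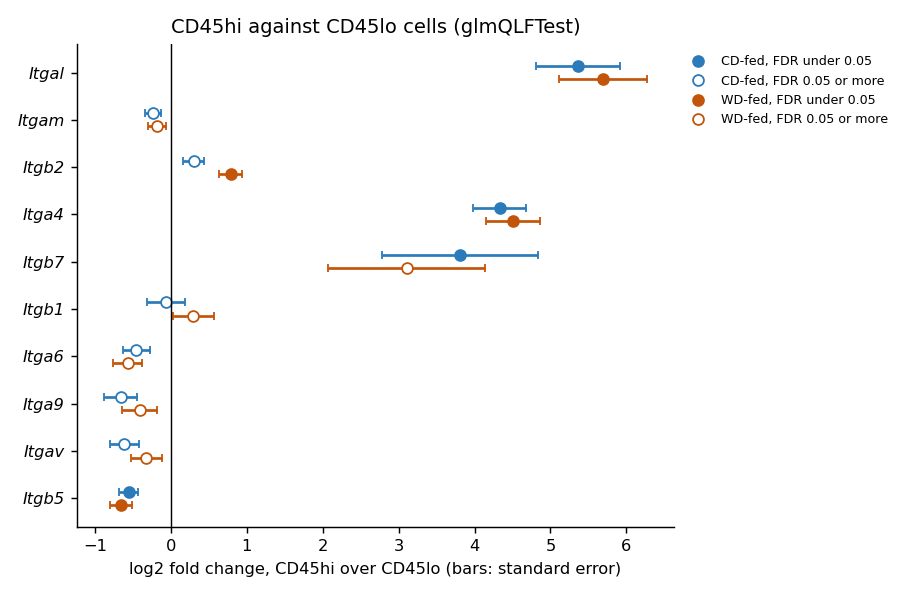
Log2 fold change of each subunit between CD45hi and CD45lo cells (x axis, positive where higher in CD45hi cells) in CD-fed and WD-fed mice, with bars of 1 standard error and filled points where the edgeR glmQLFTest FDR was under 0.05. *Itgal*, *Itga4* and *Itgb7* lie between 3.10 and 5.69, with an open point for *Itgb7* in WD-fed mice, and the other subunits between -0.66 and 0.79.

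RefSeq promoter windows of the build GRCm38.p6 were at hand for 7 of the 10 subunits (*Itga4*, *Itgav*, *Itgam*, *Itgb1*, *Itga9*, *Itgb7*, *Itgb5*). The windows of *Itga4* and *Itgb7* are printed because these genes had the large log2 fold changes just given, and that of *Itgam* because it was the most abundant subunit in both cell types. Each runs from upstream of the start site to shortly after it, 5′ to 3′ on the strand of the gene, with capitals marking matches, on either strand, to the core of PU.1-type ETS factors (GAGGAAG) or the core of RUNX factors (TGTGGT), which are factors of myeloid and lymphoid cells.
Itga4, chr2:79255176-79255475, plus strand: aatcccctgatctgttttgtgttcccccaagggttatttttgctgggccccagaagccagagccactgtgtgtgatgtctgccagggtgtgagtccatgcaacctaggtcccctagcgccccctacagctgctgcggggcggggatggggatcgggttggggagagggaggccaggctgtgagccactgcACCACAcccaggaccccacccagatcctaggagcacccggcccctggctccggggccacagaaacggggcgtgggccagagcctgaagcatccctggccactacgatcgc
Itgb7, chr15:102231886-102232185, minus strand: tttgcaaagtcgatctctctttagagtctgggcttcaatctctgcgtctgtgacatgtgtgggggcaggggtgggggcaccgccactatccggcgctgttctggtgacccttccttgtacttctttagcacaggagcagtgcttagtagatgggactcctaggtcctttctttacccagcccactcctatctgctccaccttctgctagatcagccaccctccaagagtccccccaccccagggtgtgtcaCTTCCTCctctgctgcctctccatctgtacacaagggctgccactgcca
Itgam, chr7:128062390-128062689, plus strand: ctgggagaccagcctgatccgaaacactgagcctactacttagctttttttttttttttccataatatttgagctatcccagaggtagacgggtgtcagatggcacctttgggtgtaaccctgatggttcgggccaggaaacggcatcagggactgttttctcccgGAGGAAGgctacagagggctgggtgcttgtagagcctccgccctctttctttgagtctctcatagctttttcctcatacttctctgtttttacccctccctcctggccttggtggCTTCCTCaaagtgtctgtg

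GAGGAAG occurred 2 times in the *Itgam* window, 1 time in that of *Itgb7*, 1 time in that of *Itgav* and in none of the other windows. It occurs in 13.6% of the 32851 promoter windows of the same length. TGTGGT occurred 1 time in the *Itga4* window and in no other window of the 7, and occurs in 16.8% of all windows. The AP-1 motif TGACTCA occurred 1 time, in the window of *Itga9*, and occurs in 5.20% of all windows. The *Itga9* window, on chromosome 9 from 118711442 to 118711741, lies inside the gene as annotated in mm10, at a start downstream of the one given for *Itga9* here. A match is a run of letters and was not tested for binding.

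Beside these genes, markers of other leukocytes also moved between the sorted populations. Of the monocyte markers, 7 of the 9 measured were called higher in CD45hi cells on each diet (glmTreat), and their summed level was 453.9 to 896.5 cpm in CD45hi cells against 18.01 to 63.9 cpm in CD45lo cells of CD-fed mice. On the WD this sum was 584.3 to 969.8 against 14.5 to 81.5 cpm. All 7 markers of border-associated macrophages were higher on each diet, with sums of 2095 to 2222 against 116.8 to 252.9 cpm in CD-fed and 830.0 to 2877 against 68.5 to 162.0 cpm in WD-fed mice. Of 11 neutrophil markers, 6 were higher on each diet, at 1752 to 4277 against 654.4 to 1386 cpm in CD-fed and 1473 to 2582 against 756.8 to 971.9 cpm in WD-fed mice. The 11 markers of T, NK and B lymphocytes summed to 11.8 to 62.4 cpm and 35.5 to 160.3 cpm in CD45hi cells of CD-fed and WD-fed mice, and to at most 0.571 cpm in CD45lo cells. Of the 8 that could be tested, 2 were called higher in CD45hi cells of CD-fed and 4 in those of WD-fed mice. In CD45hi cells none of the 11 was at 0 in every library of CD-fed mice and 2 were in WD-fed mice, the T cell genes *Cd3e* (whose protein the gate selected against) and *Cd3g*, while 7 and 6 were at 0 throughout the CD45lo cells. Of 6 dendritic cell markers 1 was called higher on each diet. The part of these cells in the levels of *Itgal*, *Itga4* and *Itgb7* was not tested.

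Within the CD45hi cells of WD-fed mice, replicate 1 had the highest *Itgal*, *Itga4*, *Itgb7*, *Itgb1*, *Itga9* and *Itgav* and the lowest *Itgam* and *Itgb5*. *Itgb2* and *Itga6* lay between the other libraries. This replicate had the lowest sums of border-associated macrophage markers, 830.0 cpm, and of T, NK and B lymphocyte markers, 35.55 cpm. Its neutrophil and monocyte sums, 1699 and 794.6 cpm, lay between those of the other 2 libraries. Without this library the log2 fold change in WD-fed mice was 5.54 for *Itgal* (edgeR glmQLFTest FDR = 2.70e-05) and 4.37 for *Itga4* (FDR = 2.36e-06).

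*Itgb2* (ENSMUSG00000000290, chromosome 10 of mm10 from 77530252 to 77565708, plus strand), the shared beta chain of the leukocyte integrins, was at 576.3, 497.7, 596.5 and 623.9 cpm in CD45hi cells and 474.2, 422.6, 496.5 and 474.4 cpm in CD45lo cells of CD-fed mice. On the WD its level was 752.7, 604.2 and 784.1 cpm in CD45hi cells and 441.1, 478.5, 419.4 and 317.0 cpm in CD45lo cells. CD45hi libraries lay above CD45lo libraries on each diet, by a narrow margin in CD-fed mice. The log2 fold change was 0.30 in CD-fed mice (SE 0.139, edgeR glmQLFTest FDR = 0.244) and 0.79 in WD-fed mice (SE 0.150, FDR = 0.00231, glmTreat FDR = 0.219). The difference between these values did not pass the interaction test (log2 difference 0.49, SE 0.205, unadjusted p = 0.0291, FDR = 0.431). On the scale of TPM, which corrects for transcript length and moved the median of all genes to -0.431 in CD-fed and -0.520 in WD-fed mice, the *Itgb2* values became -0.13 and 0.27 (limma FDR = 0.639 and 0.322), or 0.30 and 0.79 relative to that median.

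*Itgam* (ENSMUSG00000030786, chromosome 7 of mm10 from 128062640 to 128118491, plus strand) encodes CD11b, the protein by which the cells were sorted, so its presence is not a finding. Its libraries ran from 1508 to 2102 cpm in CD45hi and from 1924 to 2207 cpm in CD45lo cells over both diets, and no difference was called on cpm. The TPM values were fitted without TMM. On that scale *Itgam* was lower in CD45hi cells, at -0.71 in CD-fed and -0.75 in WD-fed mice (limma FDR = 0.00107 and 0.00136). These FDR values include the move of the median of all genes on that scale. Relative to that median the values were -0.28 and -0.22, beside -0.24 and -0.18 on cpm.

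Per transcript length, *Itgam* was the most abundant of the 10 subunits in every group, with a mean of 586.5 ± 18.2 TPM (SD, n = 4) in CD45hi and 962.6 ± 60.8 TPM (SD, n = 4) in CD45lo cells of CD-fed mice. On the WD its means were 559.1 ± 80.4 TPM (SD, n = 3) and 935.0 ± 95.2 TPM (SD, n = 4). In CD45lo cells of both diets the order was *Itgam*, *Itga6*, *Itgb2*, *Itgb5*, *Itgb1*, *Itgav*, *Itga9*, *Itga4*, *Itgal* and *Itgb7*. Neighbours whose libraries overlapped there, on both diets, were *Itgb2* and *Itgb5*, *Itgb1* and *Itgav*, *Itga4* and *Itgal*, and *Itgal* and *Itgb7*. A wide gap lay below *Itga9*, at 78.3 ± 7.64 TPM against 3.78 ± 1.86 TPM for *Itga4* in CD-fed mice (SD, n = 4 each).

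In CD45hi cells that gap was filled. *Itgal* and *Itga4* were at 59.1 ± 6.81 and 57.4 ± 8.10 TPM in CD-fed mice (SD, n = 4), above *Itga9* at 34.6 ± 11.8 TPM in mean, though the libraries of *Itga4* and *Itga9* overlapped. In WD-fed mice *Itga4* (84.4 ± 14.2 TPM) and *Itgal* (83.9 ± 17.5 TPM) stood above *Itgav* (63.5 ± 4.53 TPM) in mean (SD, n = 3). The libraries of *Itgal* overlapped those of *Itgav*. Those of *Itga4* did not, at 69.8 TPM or more against 67.0 TPM or less for *Itgav*. Of the 9 neighbouring pairs, 5 did not overlap in CD45lo cells of each diet, 4 in CD45hi cells of CD-fed mice and 2 in CD45hi cells of WD-fed mice. The last count rests on 3 libraries and the others on 4, so they are not on the same footing. *Itgb7* was lowest in every group, at 7.93 ± 3.44 TPM in CD45hi cells of CD-fed mice.

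**Figure D3:**
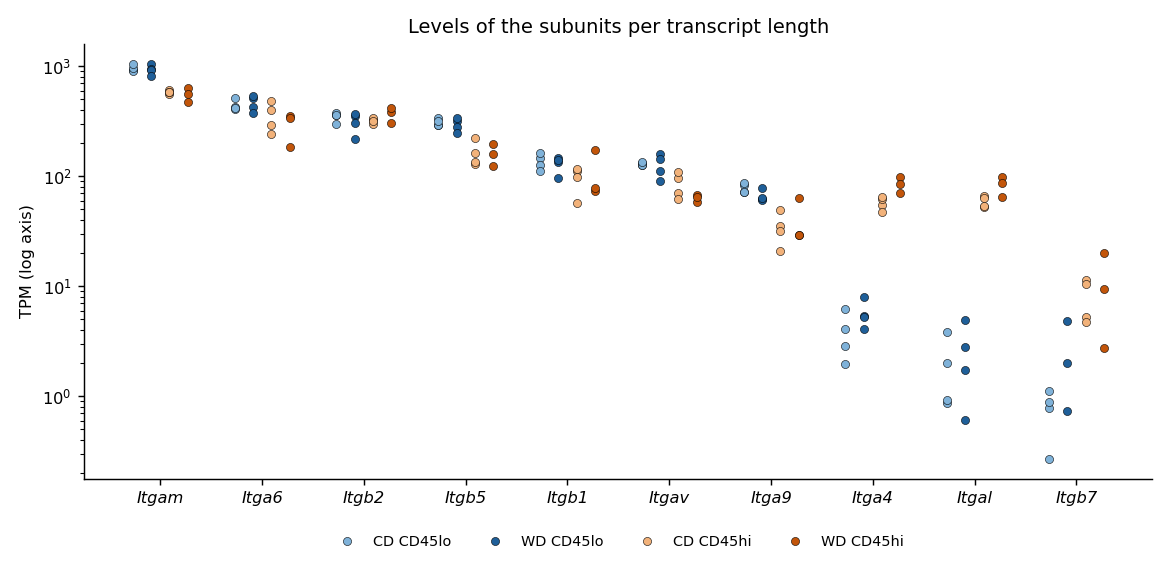
TPM of each subunit (log axis), 1 point per library, ordered by the mean in CD45lo cells of CD-fed mice. The 1 library with 0 reads of *Itgb7* cannot be drawn on this axis, and *Itga4* and *Itgal* rise from under 10 TPM in every CD45lo library to above 40 TPM in every CD45hi library.

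The alpha chains that share the beta2 chain were set against each other as shares of the summed TPM of *Itgal*, *Itgam*, *Itgax* and *Itgad*. *Itgal* made up 9.33, 8.22, 8.20 and 9.31% in CD45hi cells and 0.0926, 0.218, 0.0962 and 0.365% in CD45lo cells of CD-fed mice. On the WD it made up 16.3, 11.01 and 9.64% in CD45hi cells and 0.263, 0.516, 0.186 and 0.0738% in CD45lo cells. The share of *Itgam* was accordingly 78.3 to 90.3% in CD45hi and 98.8 to 99.4% in CD45lo cells. *Itgax* took 1.53 to 8.35% in CD45hi and 0.349 to 0.899% in CD45lo cells, and *Itgad* at most 1.73%. CD11b transcripts made up most of the beta2 partners in both cell types, which were sorted by the CD11b protein, so this is not a finding. The CD11a and CD11c shares did not overlap between the cell types.

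**Figure D4:**
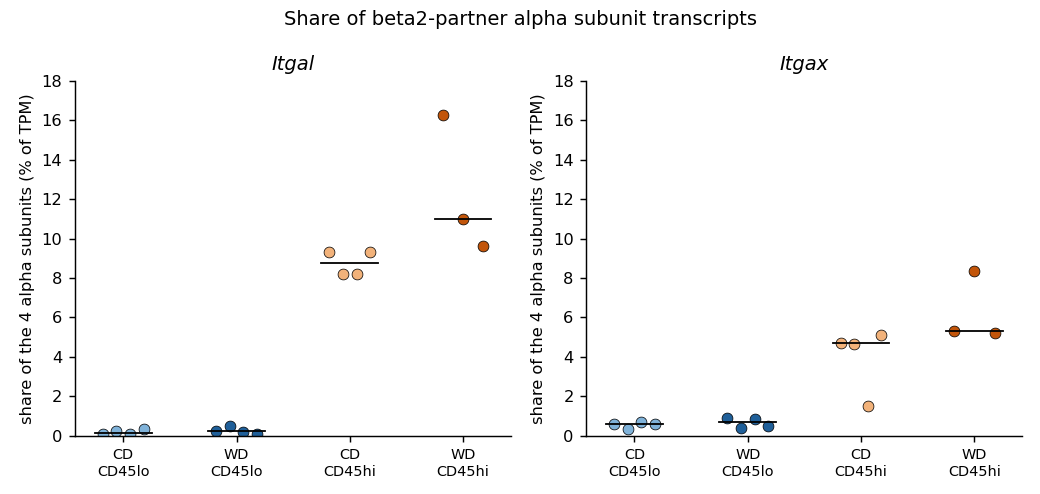
Share of *Itgal* (left) and *Itgax* (right) in the summed TPM of the 4 alpha subunits that pair with beta2, in percent, 1 point per library with a line at the median of each group. *Itgal* lies between 8.20 and 16.3% in CD45hi cells and at or under 0.516% in CD45lo cells.

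For the beta1 partners, the TPM of *Itga4* was 0.403 to 1.14 times that of *Itgb1* in CD45hi cells of CD-fed mice and 0.562 to 1.16 times in those of WD-fed mice. In CD45lo cells the ratio was 0.0133 to 0.0380 and 0.0304 to 0.0544. *Itgb7* was 0.0726 to 0.221 and 0.0397 to 0.205 times the TPM of *Itga4* in CD45hi cells of CD-fed and WD-fed mice. In the CD45hi cells *Itgb1* was thus the more abundant transcript of the beta chains that pair with alpha4.

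*Itgb1* (ENSMUSG00000025809, chromosome 8 of mm10 from 128685654 to 128733200, plus strand) was at 164.5 to 295.9 cpm in CD45hi and 216.3 to 304.7 cpm in CD45lo cells of CD-fed mice. On the WD the CD45hi libraries were at 485.8, 213.1 and 212.2 cpm and the CD45lo libraries at 198.4 to 275.1 cpm. The groups overlapped on each diet. The log2 fold change was -0.07 in CD-fed mice (SE 0.250, edgeR glmQLFTest FDR = 0.933) and 0.29 in WD-fed mice (SE 0.269, FDR = 0.563), and the latter became -0.22 without replicate 1 of the CD45hi cells.

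*Itgb5* (ENSMUSG00000022817, chromosome 16 of mm10 from 33829665 to 33949338, plus strand), the partner of alphaV in a vitronectin receptor, was the subunit called lower in CD45hi cells on both diets. It was at 329.4, 250.9, 338.4 and 299.6 cpm in CD45hi and 395.7, 474.5, 468.6 and 454.4 cpm in CD45lo cells of CD-fed mice. Under the WD its level was 261.8, 281.7 and 268.4 cpm in CD45hi and 465.1, 382.8, 453.5 and 404.8 cpm in CD45lo cells. The groups did not overlap on either diet. The log2 fold change was -0.56 in CD-fed mice (SE 0.129, edgeR glmQLFTest FDR = 0.0106) and -0.66 in WD-fed mice (SE 0.141, FDR = 0.00578), and neither was shown to exceed 1.5-fold (glmTreat FDR = 0.844 and 0.461). With the replicate number as a block both calls were lost (glmQLFTest FDR = 0.0647 and 0.0573). Of all genes, 2.08% in CD-fed and 2.90% in WD-fed mice were called lower by glmQLFTest.

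*Itgav* (ENSMUSG00000027087, chromosome 2 of mm10 from 83724397 to 83806916, plus strand) was at 262.1, 253.8, 205.2 and 163.5 cpm in CD45hi cells and 342.5, 325.2, 331.8 and 354.6 cpm in CD45lo cells of CD-fed mice. The libraries did not overlap there, and the log2 fold change of -0.61 (SE 0.188) missed the threshold (edgeR glmQLFTest FDR = 0.0547). In WD-fed mice the libraries, at 199.0 to 315.8 and 227.1 to 362.0 cpm, overlapped (log2 fold change -0.33, SE 0.204, FDR = 0.356). Exons of *Itgav* share 634 bases with *Gm13684* on the opposite strand.

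*Itga9* (ENSMUSG00000039115, chromosome 9 of mm10 from 118606690 to 118901003, plus strand) was at 106.6, 53.2, 112.8 and 109.9 cpm in CD45hi and 129.3 to 171.5 cpm in CD45lo cells of CD-fed mice. With the WD the libraries were at 118.0, 99.96 and 92.2 cpm in CD45hi and 129.2 to 155.5 cpm in CD45lo cells. Every CD45hi library was below every CD45lo library on each diet, and neither log2 fold change passed (-0.66, SE 0.213, edgeR glmQLFTest FDR = 0.0667 and -0.41, SE 0.231, FDR = 0.290). *Itga6* (ENSMUSG00000027111, chromosome 2 of mm10 from 71745616 to 71858416, plus strand) was at 304.9 to 559.8 cpm in CD45hi and 537.9 to 644.0 cpm in CD45lo cells of CD-fed mice, and at 321.7 to 461.1 and 458.8 to 660.1 cpm in those of WD-fed mice. Its libraries overlapped on each diet, and its log2 fold changes were -0.46 (SE 0.174, FDR = 0.136) and -0.57 (SE 0.190, FDR = 0.0712).

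Counted over the 10 subunits, 4 had every CD45hi library above every CD45lo library in CD-fed mice, 4 had every library below and 2 overlapped. In WD-fed mice 3 were above, 2 below and 5 overlapped. Of all genes, 16.5% in CD-fed and 23.4% in WD-fed mice had groups that did not overlap in 1 direction or the other. The WD values rest on 3 CD45hi libraries and the CD values on 4, so the diets are not on the same footing here.

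The diets were compared within each cell type to ask whether the western diet shifted any subunit. No subunit was called in CD45hi cells (0 of 10 by edgeR glmQLFTest, by DESeq2 and by limma-voom, 0 of 10 at an unadjusted p under 0.05), where 0.254% of all genes were called (0.0601% higher and 0.194% lower in WD-fed mice) and 2628 of 14967 had an unadjusted p under 0.05. DESeq2 called 1030 genes here, limma-voom 27 and the edgeR 4 quasi-likelihood form 252. FDR values ran from 0.287 to 0.987 and log2 fold changes, WD over CD, from -0.17 to 0.60, of which 8 were positive. The libraries of the diets overlapped for all 10 subunits, where 5.77% of all genes did not overlap. *Itgal* had the highest log2 fold change, 0.60 (SE 0.492, interval of about 2 SE from -0.36 to 1.57), followed by *Itgb7* (0.55, SE 0.982) and *Itga4* (0.53, SE 0.322, interval from -0.10 to 1.17). *Itgb2* had the lowest FDR (log2 fold change 0.32, SE 0.150, FDR = 0.287). Without replicate 1 of the CD45hi cells of WD-fed mice the values became 0.46 for *Itgal*, 0.40 for *Itga4*, -0.25 for *Itgb7*, -0.25 for *Itgb1* and -0.05 for *Itgav*.

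In CD45lo cells no subunit was called (0 of 10 by edgeR glmQLFTest, by DESeq2 and by limma-voom, 0 of 10 at an unadjusted p under 0.05), in a comparison where 0% of all genes were called and 123 genes had an unadjusted p under 0.05. DESeq2 called 4 genes and limma-voom 0. The libraries overlapped for all 10 subunits, where 2.42% of all genes did not overlap. Apart from *Itgb7* (log2 fold change 1.25, SE 0.951), *Itga4* (0.36, SE 0.306) and *Itgal* (0.27, SE 0.489), the values were within -0.17 and 0.00. The interaction of diet and CD45 level was called for 0 of 10 subunits by edgeR glmQLFTest, DESeq2 and limma-voom, and 1, *Itgb2*, had an unadjusted p under 0.05, as had 1515 of all 14967 genes. Of all genes 0.00668% passed the interaction by edgeR, 188 genes by DESeq2 and 0 by limma-voom. The comparisons share libraries, so that the values on the diets and in the cell types are not independent of each other.

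**Figure D5:**
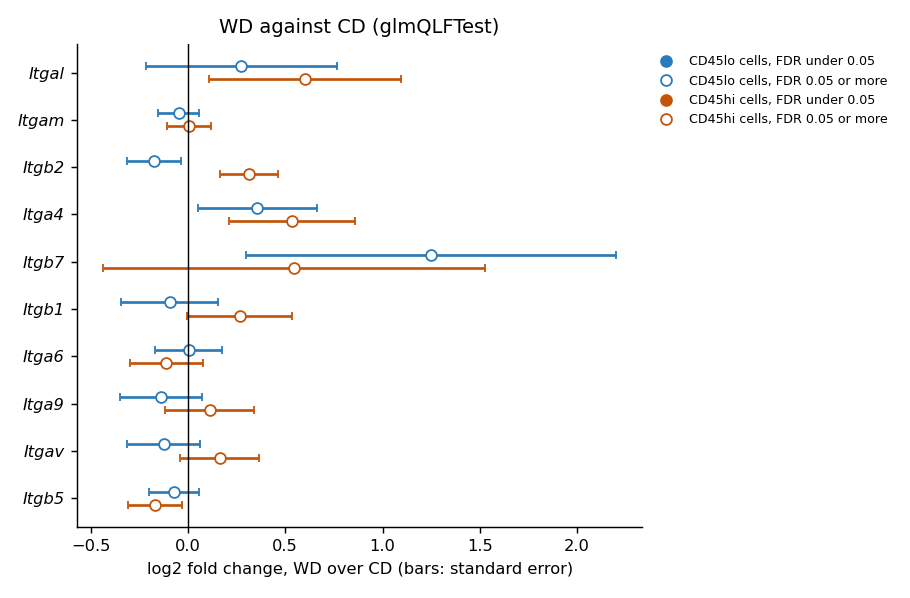
Log2 fold change of each subunit between diets (x axis, positive where higher in WD-fed mice) in CD45lo and CD45hi cells, with bars of 1 standard error. All points are open because no edgeR glmQLFTest FDR was under 0.05, and *Itgb7* in CD45lo cells lies farthest from 0, at 1.25 with an SE of 0.951.

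The pattern of each subunit over the 15 libraries was compared with 9528 genes by the root mean square difference of centred log2 cpm, where a small value means a similar course and similar range. The nearest genes of *Itgal* were *Cd97* (0.51) and *Mndal* (0.55), those of *Itga4* were *Ifitm3* (0.39) and *Ifi203* (0.47), and those of *Itgb7* were *Cytip* (0.88) and *Atp8b4* (0.99). *Itgam* was nearest to *Itm2b* (0.09) and *Hexa* (0.13), *Itgb2* to *Rab7* (0.16) and *Mtpn* (0.18), and *Itgb5* to *Sirpa* (0.12) and *Csf1r* (0.13). *Itgb1* was nearest to *Magt1* (0.20) and *Hdlbp* (0.21), *Itga6* to *Inpp5d* (0.18) and *Fam105a* (0.18), *Itga9* to *Cyp4v3* (0.19) and *Cd9* (0.20), and *Itgav* to *Epc2* (0.16) and *Sft2d1* (0.17). The points share the division into CD45hi and CD45lo libraries, and the smaller values belong to subunits that varied little.

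Genes that work with these subunits were followed in 3 lists of other subunits, ligands and activating or adaptor proteins, with 65 of 77 genes tested. In CD-fed mice 8 were called higher in CD45hi cells and 0 lower by glmTreat (12.3%, against 3.39% higher and 0.588% lower of all genes). In WD-fed mice 6 were higher and 1 lower (10.8%, against 4.01% and 1.17%). The median log2 fold change of the 65 genes was 0.23 and 0.63.

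Of the 17 other subunits, 13 were tested, and *Itgax*, the CD11c chain, was higher on each diet, with a log2 fold change on the CD of 2.80 (SE 0.437, glmTreat FDR = 0.00136). *Itgb3*, another beta partner of alphaV, was at 43.5, 51.6 and 68.2 cpm in CD45hi cells of WD-fed mice and at 120.1 to 174.9 cpm in CD45lo cells, without overlap. This was a log2 fold change of -1.47 (SE 0.282, glmTreat FDR = 0.0183). In CD-fed mice *Itgb3* was at 76.5 to 178.7 cpm in CD45hi and 132.4 to 170.0 cpm in CD45lo cells and was not called (-0.36, SE 0.250, FDR = 0.983). The difference between the diets was not called by the interaction test (log2 difference -1.11, SE 0.371, FDR = 0.366). Within CD45hi cells *Itgb3* was lower in every WD library than in every CD library, with a log2 fold change of -1.16 that missed the threshold (SE 0.279, glmQLFTest FDR = 0.0718). The remaining 11 tested subunits were not called, and their group means were at most 34.1 cpm, the value of *Itga5* in CD45hi cells of WD-fed mice.

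Of 23 ligand genes tested, 4 were higher in CD45hi cells on each diet (17.4%, against 3.39% and 4.01% of all genes) and 0 lower. *Spp1* (osteopontin, bound by alphaV, alpha4 and alpha9 integrins) had log2 fold changes of 5.49 and 6.52 (SE 0.744 and 0.790, edgeR glmTreat FDR = 2.08e-04 and 6.41e-05) in CD-fed and WD-fed mice. *Thbs1* (thrombospondin 1) had 3.39 and 2.33 (SE 0.459 and 0.461), and *Vcam1*, the ligand of alpha4 integrins, 1.94 and 2.41 (SE 0.385 and 0.408, FDR = 0.0162 and 0.00344). *Fn1* (fibronectin) was called in CD-fed mice (2.72, SE 0.496, FDR = 0.00541) and had 1.75 (SE 0.504, FDR = 0.102) in WD-fed mice. Complement *C3*, the source of a CD11b ligand, was called in WD-fed mice (2.70, SE 0.704, FDR = 0.0456) and had 2.62 (SE 0.675, FDR = 0.0513) in CD-fed mice.

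Of 29 activation and adaptor genes tested, 3 were higher in CD45hi cells of CD-fed mice (10.3%), 1 in those of WD-fed mice (3.45%) and 0 lower on either diet. Of all genes, 3.39% in CD-fed and 4.01% in WD-fed mice were called higher, so the WD share was not above that of all genes. *Fgr*, a Src-family kinase downstream of beta2 integrins, had 3.56 and 3.55 (SE 0.486 and 0.500, edgeR glmTreat FDR = 3.06e-04 and 4.07e-04). *Rasgrp2*, which activates the Rap1 GTPase and through it integrins, had 3.32 (SE 0.601, FDR = 0.00396) in CD-fed mice and 2.27 (SE 0.600, FDR = 0.0558) in WD-fed mice. *Zyx* (zyxin, of focal adhesions) had 1.84 (SE 0.272, FDR = 0.00186) and 0.98 (SE 0.283, FDR = 0.211). None of the 65 genes was called between the diets in either cell type or by the interaction (0 by edgeR glmQLFTest, with 16, 0 and 9 at an unadjusted p under 0.05, where 2628, 123 and 1515 of all 14967 genes were).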

How the data were processed

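RNA from CD11b+CD45hi and CD11b+CD45lo cells was made into poly(A)-selected libraries (TruSeq v2) by the authors, sequenced as paired-end reads and trimmed. The authors quantified genes with RSEM 1.2.12 and Bowtie2 on mm10 and deposited RSEM's expected counts (estimated numbers of reads, fractional in part and without normalization), TPM values (scaled by length to the same sum in each library) and effective lengths. The annotation release, the strand setting of the counting and the platform of each library are not given in the sources used here. RSEM divides reads shared by several genes or transcripts, so values of overlapping genes are uncertain, and effective lengths follow the estimated mix of transcripts.

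After rounding, 14967 genes reached 1 cpm in 2 or more libraries. These were TMM-normalized and fitted in all 15 libraries, as 4 groups, with the earlier quasi-likelihood form of edgeR 4.0.16 (R 4.3.3). CD45hi and CD45lo cells were compared with glmTreat at 1.5-fold and with glmQLFTest, and diets and the interaction with glmQLFTest, at an FDR (Benjamini-Hochberg) under 0.05 over all 14967 genes. A standard error is the log2 fold change divided by the square root of F. Levels of different genes were compared as TPM. Groups follow the sample titles. All 21 replicate pairs differed beyond counting noise (chi-square of at least 20.6 per degree of freedom). The computation was tested on simulated data.

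The members, gene lists and tests were chosen with earlier results of these data known. Named were all 10 subunits and list genes past glmTreat on either diet (up to 8 per list). *Itga5*, *Itga8*, *Itgb8* and the beta2 partner *Itgad* were chosen after their values were seen. Also named were the 2 genes nearest to each subunit in pattern, among genes with at least 10 cpm in the highest group. The monocyte marker *Chil3* matched no row. Coordinates are from GENCODE M21, which lists 37607 of 38924 identifiers, and promoters from RefSeq. Alternatives were limma-voom (limma 3.58.1), DESeq2 1.42.0, its size factors within edgeR, no filter and a filter of 5 cpm in 3 libraries, the compared groups alone, the edgeR 4 quasi-likelihood form, unrounded counts, replicate blocks, leaving out libraries, and, added after seeing the data, log2(TPM + 1) with limma.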

Additional observations from a re-analysis of the deposited data

Results flagged for a closer look

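*Itga9* in replicate 2 of the CD45hi cells of CD-fed mice was at 53.2 cpm, set apart from the other 3 libraries of that group at 106.6 to 112.8 cpm. It was the 1 value of 30 groups of 4 libraries whose gap to the nearest library, 0.895 of the range of the group, exceeded Dixon's critical value of 0.829. For independent groups about 1 in 20 would exceed this critical value by chance. The 30 groups share libraries and are not independent, so the count was not tested against that rate. The cause of the low value was not tested. Without that library the log2 fold change of *Itga9* between CD45hi and CD45lo cells of CD-fed mice was -0.46, against -0.66 with it.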

How the results depend on the processing

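*Itgal* and *Itga4* were called on each diet under every alternative run and with any 1 library left out, at log2 fold changes of 4.47 to 6.16 for *Itgal* and 3.68 to 4.75 for *Itga4*. Subunits called in the 1.5-fold test numbered 2 to 3 and in the test of any difference 3 to 6 over these settings. Between diets or by the interaction 0 were called under each of them. The tests were glmTreat and glmQLFTest in edgeR, and those of DESeq2 and limma for the same questions. *Itgb5* missed the threshold with a replicate block (FDR = 0.0647 in CD-fed and 0.0573 in WD-fed mice; numbers of the deposited files 0.0605 and 0.0863). *Itgb7* passed the 1.5-fold test in CD-fed mice with that block (FDR = 0.0325). It also passed there with DESeq2, the stricter filter, the compared groups alone and the edgeR 4 form (FDR = 0.00335 to 0.0423). In WD-fed mice it passed with the edgeR 4 form (FDR = 0.00746). It passed the test of any difference in WD-fed mice with DESeq2, limma-voom, the edgeR 4 form and TPM (FDR = 0.00224 to 0.0421). The block moved the median of all genes to -0.215 and -0.256. With it glmQLFTest called 786 of all genes in CD-fed and 718 in WD-fed mice, against 1202 and 1365 without it. Same-numbered libraries correlated at -0.0217 to 0.0695, under the 0.1 set for pairing, so the block was not used as the main design. A low correlation cannot show that libraries came from different mice, so whether the numbers pair the libraries is not settled. *Itgav* passed the test of any difference in CD-fed mice with DESeq2, limma-voom, the stricter filter, the edgeR 4 form and the compared groups alone (FDR = 0.0241 to 0.0474). *Itga9* passed it there with DESeq2, limma-voom and TPM (FDR = 0.0108 to 0.0393). In WD-fed mice *Itga6* passed with limma-voom (FDR = 0.0405) and *Itgav* on TPM (FDR = 0.0115). Leaving out 1 library also let *Itgb7*, *Itga6* or *Itgav* pass in some runs. limma-voom moved the median of all genes to -0.222 in CD-fed and -0.265 in WD-fed mice. On TPM the pathway genes called in CD-fed mice fell to 5, with 4 higher and 1 lower. In CD45hi cells of WD-fed mice, neighbours in the order of TPM that did not overlap numbered 4 to 5 with 1 library left out, against 2. A range over fewer libraries cannot be wider, so these counts are not on the same footing. Causes were otherwise not tested.

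Signs turned for values that had passed no test. On TPM, *Itgb2* was -0.13 in CD-fed mice, *Itgb1* -0.36 in WD-fed mice, *Itgam* -0.078 and *Itgav* -0.38 between diets in CD45hi cells, and the interactions were -0.033 (*Itgam*), -0.30 (*Itgav*) and 0.063 (*Itgb5*). With limma-voom *Itgb7* was -0.047 between diets in CD45lo cells and 0.20 for the interaction. *Itga6* between diets in CD45lo cells was -0.015 without a filter, -0.00012 with the stricter filter and -0.0039 with the replicate block. With that block the interaction of *Itgal* was -0.19, and with the numbers of the deposited files that of *Itga4* was -0.019 and of *Itgb7* 0.50. With 1 library left out, or both CD45hi libraries that stood apart, *Itgb1* ran from -0.15 to 0.093 in CD-fed and -0.22 to 0.50 in WD-fed mice. Diet values in CD45hi cells ran from -0.13 to 0.16 (*Itgam*), -0.41 to 1.01 (*Itgb7*), -0.41 to 0.47 (*Itgb1*), -0.25 to 0.060 (*Itga6*), -0.085 to 0.20 (*Itga9*) and -0.17 to 0.30 (*Itgav*). In CD45lo cells they ran from -0.20 to 0.89 (*Itgal*), -0.18 to 0.00018 (*Itgb1*), -0.066 to 0.10 (*Itga6*) and -0.21 to 0.00010 (*Itgav*). Interactions ran from -0.29 to 0.80 (*Itgal*), -0.080 to 0.20 (*Itgam*), -0.15 to 0.42 (*Itga4*), -1.66 to 0.32 (*Itgb7*), -0.31 to 0.56 (*Itgb1*), -0.26 to 0.055 (*Itga6*) and -0.047 to 0.42 (*Itgav*).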

Other observations

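RSEM's effective length, the mean length of a gene's transcripts weighted by their estimated abundance and reduced by the fragment length, differed between the sorted populations for *Itga6*. It was 1340 to 1864 bases in CD45hi and 2397 to 2510 bases in CD45lo cells of CD-fed mice, without overlap, and 1422 to 2188 against 2163 to 2647 bases in WD-fed mice, with overlap. For *Itgam* it ran from 4087 to 4184 bases over all libraries. Which *Itga6* transcripts were used was not analysed here, and its TPM on the 2 populations rests on these lengths. Effective lengths also varied between the CD45hi libraries of WD-fed mice for other subunits. They ran from 1941 to 5313 bases for *Itga9*, 4070 to 6173 for *Itgav* and 1828 to 2915 for *Itgb5*. The order of the subunits in TPM rests on these lengths too.

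Among the other subunits, *Itgb8*, a partner of alphaV that binds latent TGF-beta, was at 2.61, 19.5 and 23.8 cpm in CD45hi cells and 0.721 to 2.23 cpm in CD45lo cells of WD-fed mice. The groups did not overlap, and the log2 fold change of 3.35 missed the threshold (SE 1.09, edgeR glmTreat FDR = 0.108). Groups without overlap on that diet occurred for 23.4% of all genes. On the CD the *Itgb8* libraries overlapped, at 0.0644 to 9.24 cpm in CD45hi and 0.676 to 4.20 cpm in CD45lo cells (log2 fold change 0.84, glmTreat FDR = 0.93). Its interaction was not called (glmQLFTest FDR = 0.582). *Itga8* also missed the 1.5-fold test. Its groups did not overlap on the CD (5.05, FDR = 0.0980) and overlapped on the WD (3.415, FDR = 0.283).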
